A study of Mus musculus with 6 samples.

Results

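Genes that restrict or silence endogenous retroelements were measured in heart ventricles of mice that lack the exonuclease Trex1. The set held 9 genes chosen by known function, with earlier results of these data known. Apobec3, Apobec1, Mov10, Zc3hav1 and Adar are restriction factors, and Trim28, Setdb1, Dnmt1 and Uhrf1 are silencing factors. Every probe set (a group of short probes for one transcript) that the platform annotation assigns to one of these symbols alone was used, which gave 20 probe sets. All 9 genes were on the array, of 18193 genes with such a probe set. The brightest probe set stood for each gene, and all 9 were bright enough to test, of 12811 tested genes. Total RNA came from 6 mice, 1 array per mouse. Every mouse carried a Rag2 knockout (RAG2KO), which prevents mature T and B lymphocytes from forming. Wild-type Trex1 was present in 3 of them (Trex1 WT) and absent in the other 3 (Trex1 KO). The mice formed 3 littermate pairs, A, B and C, each with 1 animal of either genotype. The age of the animals, the construction of the knockout alleles and the cell types in which Trex1 was lost are not stated in the labels or files.

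Endogenous retroelements are copies of retroviruses and retrotransposons in the genome, and cells limit them at several steps. Silencing factors keep the copies inactive through histone and DNA methylation, while restriction factors act on the RNA, the reverse-transcribed DNA or the particle. Trex1 degrades DNA in the cytosol, which can include reverse-transcribed retroelement DNA, and several restriction factors are themselves induced by interferon. In the bulk tissue, more cells of a type and more RNA per cell cannot be told apart.

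Signals are the intensities that the authors deposited, scaled so that each array has the same trimmed mean. Trex1 had signals between 340 and 887 in Trex1 WT and between 9.45 and 34.2 in Trex1 KO, the latter below the highest bacterial control (69.8). Whether its probe set lies in the deleted part is not stated in the labels or files. Cardiomyocyte markers were measured on every array, and the cardiac myosin heavy chain Myh6 had mean signals of 50556 and 50053. Of 11 T and B lymphocyte markers, only Ighm and Cd8a were bright enough to test, and the T cell receptor chain Cd3e had mean signals of 16.3 in both groups. The Actb 3' to 5' ratio, a sign of RNA integrity, lay between 1.80 and 2.29 in Trex1 WT and between 1.60 and 1.68 in Trex1 KO, without overlap. The 18S signal ran from 924 to 13708 and from 798 to 2834.

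The promoters of all 9 genes were found in the RefSeq table of build GRCm38.p6, as 16 windows that run from 250 bases before to 50 bases after an annotated start. They were searched on both strands for the core of the interferon response element, GAAANNGAAA, for the gamma-activated site TTCNNNGAA, and for the E2F-like site TTTNGCGC, which is common in genes of DNA replication. The matches did not overlap one another. Of all 32851 promoter windows, 3.44% held the first, 8.30% the second and 1.38% the third. Among the 16 windows, the interferon core was found in 1, at the upstream start of Apobec3. Its leftmost base lay at position -140 from the start, and the match was on the opposite strand. The gamma-activated site was found in 1 window, at position 23 of the third start of Adar. The E2F-like site was found in 2, at positions -219 and 34 of the third start of Dnmt1 and at position -185 of the second start of Uhrf1. CG dinucleotides numbered between 2 and 34 per window, and 13 of the 16 windows had more than the median of all windows, 7.

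Sequences are shown for Apobec3, the member with an interferon core, and for Zc3hav1 and Adar, whose signals differed most between the genotypes. Each is the 250 bases before the upstream start, written on the gene's strand, with motif matches in capitals. They lie at chr15:79892158-79892407 (plus strand), chr6:38354604-38354853 (minus strand) and chr3:89714772-89715021 (plus strand).
Apobec3: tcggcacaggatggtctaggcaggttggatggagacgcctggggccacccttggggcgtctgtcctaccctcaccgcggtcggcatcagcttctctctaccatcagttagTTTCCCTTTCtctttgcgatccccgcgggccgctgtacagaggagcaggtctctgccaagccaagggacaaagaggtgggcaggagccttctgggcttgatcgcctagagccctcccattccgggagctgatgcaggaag
Zc3hav1: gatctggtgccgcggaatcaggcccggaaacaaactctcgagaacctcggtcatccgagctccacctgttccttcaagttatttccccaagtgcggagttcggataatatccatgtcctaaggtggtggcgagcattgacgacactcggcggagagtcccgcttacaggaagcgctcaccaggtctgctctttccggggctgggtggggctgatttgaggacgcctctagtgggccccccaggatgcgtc
Adar: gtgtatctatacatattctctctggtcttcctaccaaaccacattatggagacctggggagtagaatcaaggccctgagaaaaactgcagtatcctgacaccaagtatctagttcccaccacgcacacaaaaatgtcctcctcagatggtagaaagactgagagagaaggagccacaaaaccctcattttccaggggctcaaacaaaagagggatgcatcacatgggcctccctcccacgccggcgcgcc
The stretches of Zc3hav1 and Adar hold none of the 3 motifs, which says only that these letters are not in this window. For the silencing genes with an E2F-like site, the 30 bases around the upstream match are shown with the site in capitals. They lie at chr9:20952824-20952853 (minus strand) and chr17:56304117-56304146 (plus strand).
Dnmt1: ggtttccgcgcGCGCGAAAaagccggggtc
Uhrf1: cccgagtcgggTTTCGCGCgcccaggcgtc

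None of the 9 genes passed the test between Trex1 KO and Trex1 WT, but for the restriction factors Zc3hav1, Adar and Apobec1 every knockout array lay above every wild-type array. Limma with Benjamini-Hochberg adjustment called 0 of 9 higher and 0 of 9 lower, where it called 0.312% of all tested genes higher and 0.039% lower. With the littermate pair as a block it again called 0 of 9 in each direction, beside 0.531% and 0.0937% of all tested genes. At an unadjusted p under 0.05 there were 2 of 9, Zc3hav1 and Adar, beside 678 of all 12811 tested genes. In the fit with the littermate block, Zc3hav1, Adar and also Apobec1 were under this unadjusted cut, beside 1059 of all tested genes. All 3 Trex1 KO arrays lay above all 3 Trex1 WT arrays for 3 of 9 genes, against 5.03% of tested genes, and below them for 0 of 9, against 5.83%. Log2 differences (Trex1 KO minus Trex1 WT, of signal plus 16) had a median of 0.38 over the 5 restriction factors and -0.08 over the 4 silencing factors, beside -0.02 over all tested genes. The plot of signals by littermate pair shows each gene on every array.

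**Figure D1:**
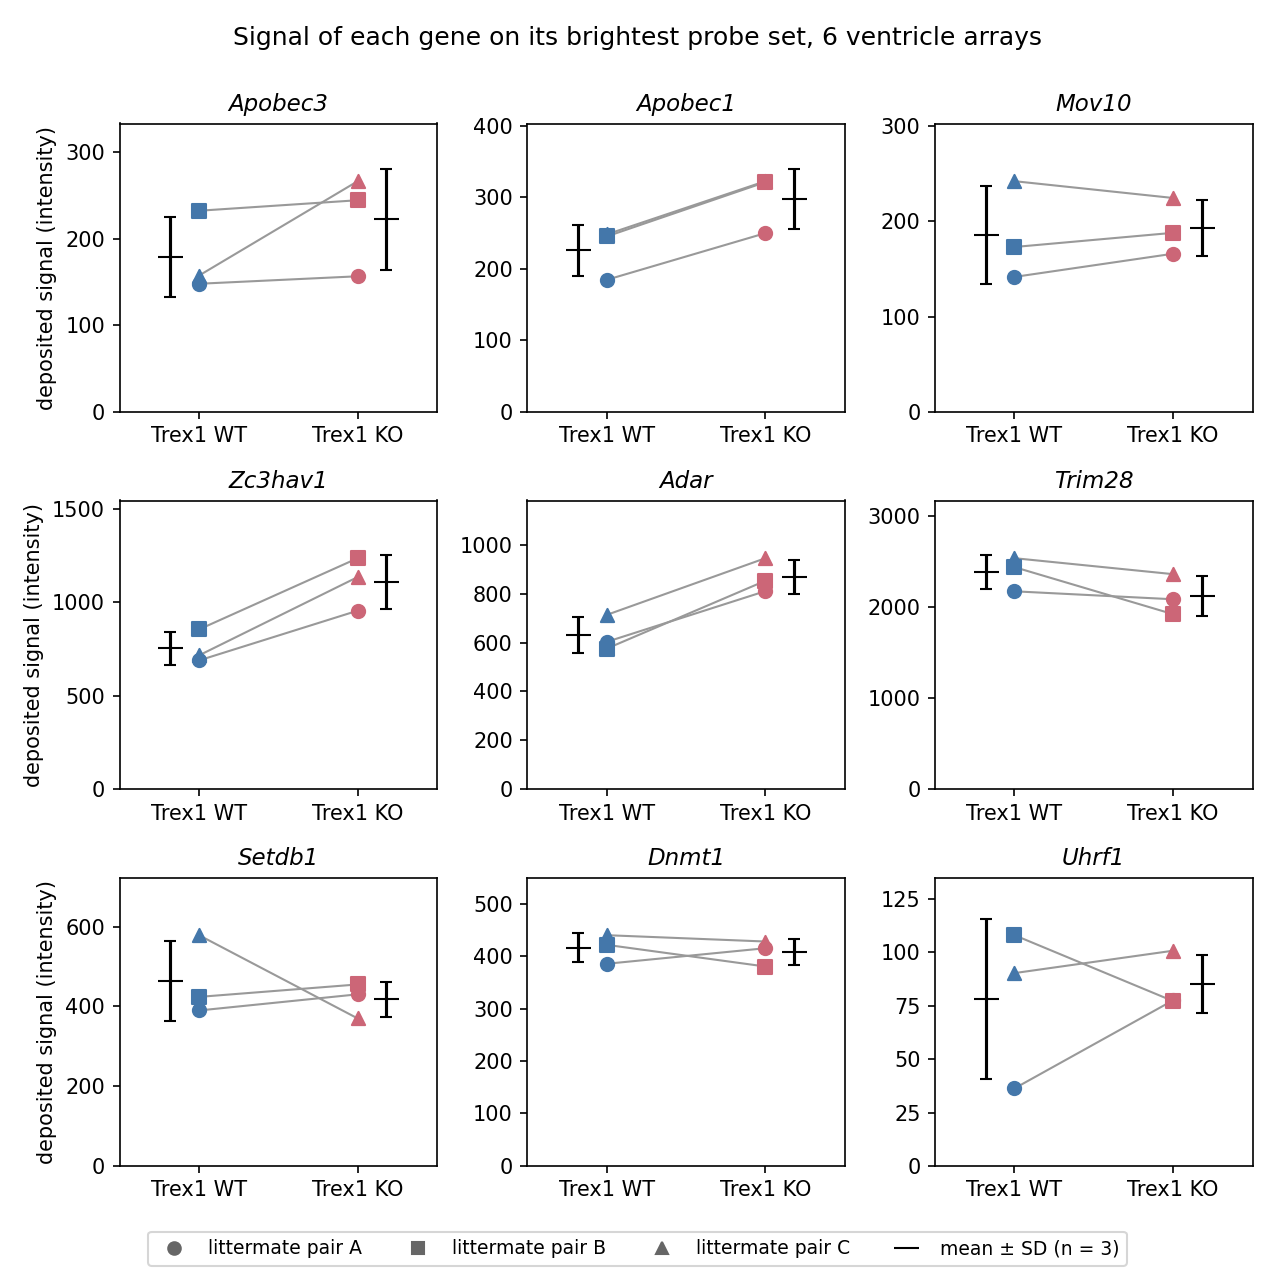
Deposited signal (linear intensity, each panel on its own axis from 0) of the brightest probe set of each gene in Trex1 WT and Trex1 KO ventricles. Points are arrays, grey lines join littermates, and black bars are the mean ± SD of 3 arrays; the groups are apart for Apobec1, Zc3hav1 and Adar and overlap for the other genes.

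Zc3hav1 encodes the zinc-finger antiviral protein, which binds CG-rich RNA and directs its decay. Its signals were 688, 854 and 715 for Trex1 WT (pairs in the order A, B, C) against 955, 1236 and 1135 for Trex1 KO. All 3 knockout arrays were above all 3 wild-type arrays, and each knockout was above its littermate. The means were 752 ± 89.1 and 1108 ± 142 (SD, n = 3), a 1.46-fold difference. The log2 difference was 0.55 (SE 0.14, 95% interval 0.23 to 0.86), with a limma adjusted p of 0.418, and 0.0963 with the littermate pair as a block. A dimmer probe set of Zc3hav1 gave 161, 192 and 191 in Trex1 WT and 232, 237 and 244 in Trex1 KO. Here too the groups did not overlap, with a log2 difference of 0.37 (SE 0.18) and a limma adjusted p of 0.943. The remaining probe set of Zc3hav1 had signals between 4.12 and 58.3, below the highest bacterial control, and was not tested. As a mean over its probe sets, this dim one included, the log2 difference of Zc3hav1 was 0.47 (SE 0.22, limma adjusted p = 0.923).

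Adar edits adenosine to inosine in double-stranded RNA and is made as a long, interferon-inducible form and a shorter constitutive form. All 3 of its probe sets were higher in each knockout than in its littermate. The brightest gave 604, 576 and 715 for Trex1 WT (pairs in the order A, B, C) against 812, 855 and 947 for Trex1 KO. Its means were 632 ± 73.2 and 871 ± 69.2 (SD, n = 3), without overlap. The log2 difference was 0.46 (SE 0.13, 95% interval 0.16 to 0.76) but the gene was not called (limma adjusted p = 0.609; 0.238 under the littermate block). The next probe set of Adar gave 141, 187 and 209 in Trex1 WT and 310, 343 and 631 in Trex1 KO. Its groups were apart as well, and Trex1 KO C stood highest. This log2 difference, 1.13 (SE 0.27, 95% interval 0.54 to 1.73), was the largest of the 16 tested probe sets of the 9 genes, with a limma adjusted p of 0.297. With the littermate pair as a block its limma adjusted p was 0.0502, just outside the threshold of 0.05. The third gave 159, 138 and 162 in Trex1 WT and 245, 249 and 377 in Trex1 KO, a log2 difference of 0.84 (SE 0.21, limma adjusted p = 0.412). The probe sets thus differed in the size of the change, from 0.46 to 1.13, and the difference between them was not tested. As a mean over its probe sets, the log2 difference of Adar was 0.81 (limma adjusted p = 0.178). Which form of Adar each probe set reads is not stated in the labels or files. The Actb ratio moved with the groups: with it as a covariate the 3 log2 differences were 0.20, 1.05 and 0.75, and none passed (limma adjusted p = 0.911, 0.846 and 0.853).

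Apobec1 is the cytidine deaminase that edits the apolipoprotein B transcript. Its only probe set gave 185, 245 and 248 for Trex1 WT (pairs in the order A, B, C) against 250, 321 and 323 for Trex1 KO. The knockout arrays were all above the wild-type arrays, although Trex1 KO A lay barely above Trex1 WT C. The differences within littermate pairs A, B and C were alike, at 0.41, 0.37 and 0.36 on the log2 scale. Their mean of 0.38 (SE 0.19, 95% interval -0.05 to 0.81) did not pass (limma adjusted p = 0.954). It was 0.25 without Trex1 WT A, the lowest array.

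Apobec3, a cytidine deaminase that enters retroviral particles and mutates their DNA, did not separate by genotype. Its signals were 148, 232 and 157 for Trex1 WT (pairs in the order A, B, C) against 157, 244 and 266 for Trex1 KO. Trex1 WT B lay above Trex1 KO A, so the groups overlapped. On the log2 scale pairs A and B differed by 0.07 each and pair C by 0.70, with a mean of 0.28 (SE 0.25, 95% interval -0.29 to 0.85, limma adjusted p = 0.956). Most of the mean came from pair C: it was 0.07 without both animals of that pair. Leaving out 1 array gave values from 0.14 (without Trex1 KO C) to 0.50 (without Trex1 KO A). It was 0.65 once the Actb ratio entered as a covariate. Mov10, an RNA helicase that limits retrotransposition, had signals of 142, 173 and 242 in Trex1 WT and 166, 188 and 224 in Trex1 KO. These ranges overlapped almost fully, and pair C went the other way from pairs A and B. Its log2 difference was 0.07 (SE 0.24, 95% interval -0.45 to 0.60, limma adjusted p = 0.988). The dimmer probe set of Mov10 gave 0.28 (SE 0.23) without overlap between the groups, and its limma adjusted p was 0.955.

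Macrophages are known to express several restriction factors, so their markers are given beside these genes, with those of other blood cells. Of all tested genes 44.5% were above 0, with a median log2 difference of -0.02. Of 18 tested monocyte and macrophage markers, 0 passed in limma and 13 were above 0, with a median log2 difference of 0.25. With the littermate pair as a block 1 passed, beside 0.0937% of all tested genes called lower with it. This was the scavenger receptor Cd163, which was lower (518 ± 160 against 185 ± 29.01, SD, n = 3, log2 difference -1.38, limma adjusted p = 0.0504, and 0.00855 with the block). Knockout arrays lay above all wild-type arrays for 3 of the 18, against 5.03% of tested genes, and below them for 1, Cd163, against 5.83%. The 3 were Fcgr1 (0.73), Lgals3 (0.70) and C1qa (0.52), which did not pass and, like Cd163, are named after their values were seen. The summed signal of the macrophage markers ran from 23672 to 36938 in Trex1 WT and from 28193 to 38685 in Trex1 KO, and the defining markers Csf1r, Adgre1 and Cd68 had mean signals of 4746, 723 and 452 in Trex1 WT and 4225, 937 and 526 in Trex1 KO. Of 10 tested natural killer cell markers 9 were above 0 and 0 passed, with a median of 0.58 and a summed signal from 861 to 1304 in Trex1 WT and from 1237 to 3023 in Trex1 KO. The 3023 was that of Trex1 KO B, and the medians within pairs A, B and C were 0.15, 0.84 and 0.34. Of 5 tested neutrophil markers 4 were above 0 and 0 passed, with a median of 0.79 and a summed signal from 727 to 868 in Trex1 WT and from 633 to 1806 in Trex1 KO. Pair A went the other way, with neutrophil medians of -0.36, 1.19 and 0.94 within pairs A, B and C. The part of RNA from these cells in the differences of the restriction factors was not tested.

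None of the 4 silencing factors passed, and the genotypes overlapped on the brightest probe set of each. Trim28, the corepressor that KRAB zinc finger proteins bring to retroelements, had signals of 2173, 2438 and 2537 for Trex1 WT (pairs in the order A, B, C) against 2085, 1921 and 2361 for Trex1 KO. Each knockout was below its littermate, but the groups overlapped because Trex1 WT A lay below Trex1 KO C. The log2 difference was -0.17 (SE 0.12, 95% interval -0.42 to 0.09, limma adjusted p = 0.955), and the other probe set of Trim28 gave -0.08. The value was -0.099 without Trex1 KO B and -0.081 without both animals of pair B. Setdb1, the histone methyltransferase that Trim28 recruits, had signals of 390, 424 and 579 in Trex1 WT and 430, 455 and 370 in Trex1 KO. Pair C held both the highest and the lowest value. The log2 difference was -0.13 (SE 0.18, 95% interval -0.53 to 0.27, limma adjusted p = 0.971), and 0.12 without both animals of pair C. With the Actb ratio as a covariate it was -0.59. The other 2 probe sets of Setdb1 had signals between 8.31 and 90.6 and were not bright enough to test.

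Dnmt1 copies DNA methylation to the new strand after replication. Its signals were 385, 421 and 440 for Trex1 WT (pairs in the order A, B, C) against 415, 380 and 428 for Trex1 KO, in one overlapping range. The log2 difference was -0.03 (SE 0.14, 95% interval -0.34 to 0.29). As on the brightest probe set of each other gene, the interval excluded a change as large as the median of the interferon-stimulated genes below. The other 2 tested probe sets of Dnmt1 gave 0.02 (SE 0.23) and 0.49 (SE 0.39, 95% interval -0.38 to 1.37), also with overlapping groups. Dnmt1 lies on chromosome 9 as Trex1 does, with 543 tested genes between them in the GRCm38.p6 gene table. Uhrf1, which recognises half-methylated DNA and brings Dnmt1 to it, had signals of 36.3, 108 and 90.3 in Trex1 WT and 77.6, 77.2 and 101 in Trex1 KO. Trex1 WT A was lower than the other 5 arrays and below the highest bacterial control. The log2 difference of 0.19 (SE 0.37, 95% interval -0.63 to 1.003, limma adjusted p = 0.977) leaves room for a change in either direction, and it was -0.19 without Trex1 WT A. The second probe set of Uhrf1 had signals of at most 49.3 and was not tested. Uhrf1 and Dnmt1 are genes of dividing cells. Of 19 tested S phase and mitosis genes 0 passed in limma and 15 were above 0, against 44.5% of all tested genes. The median log2 difference of the 19 was 0.20. The proliferation marker Mki67 had mean signals of 266 ± 88.1 and 359 ± 52.2 (SD, n = 3).

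**Figure D2:**
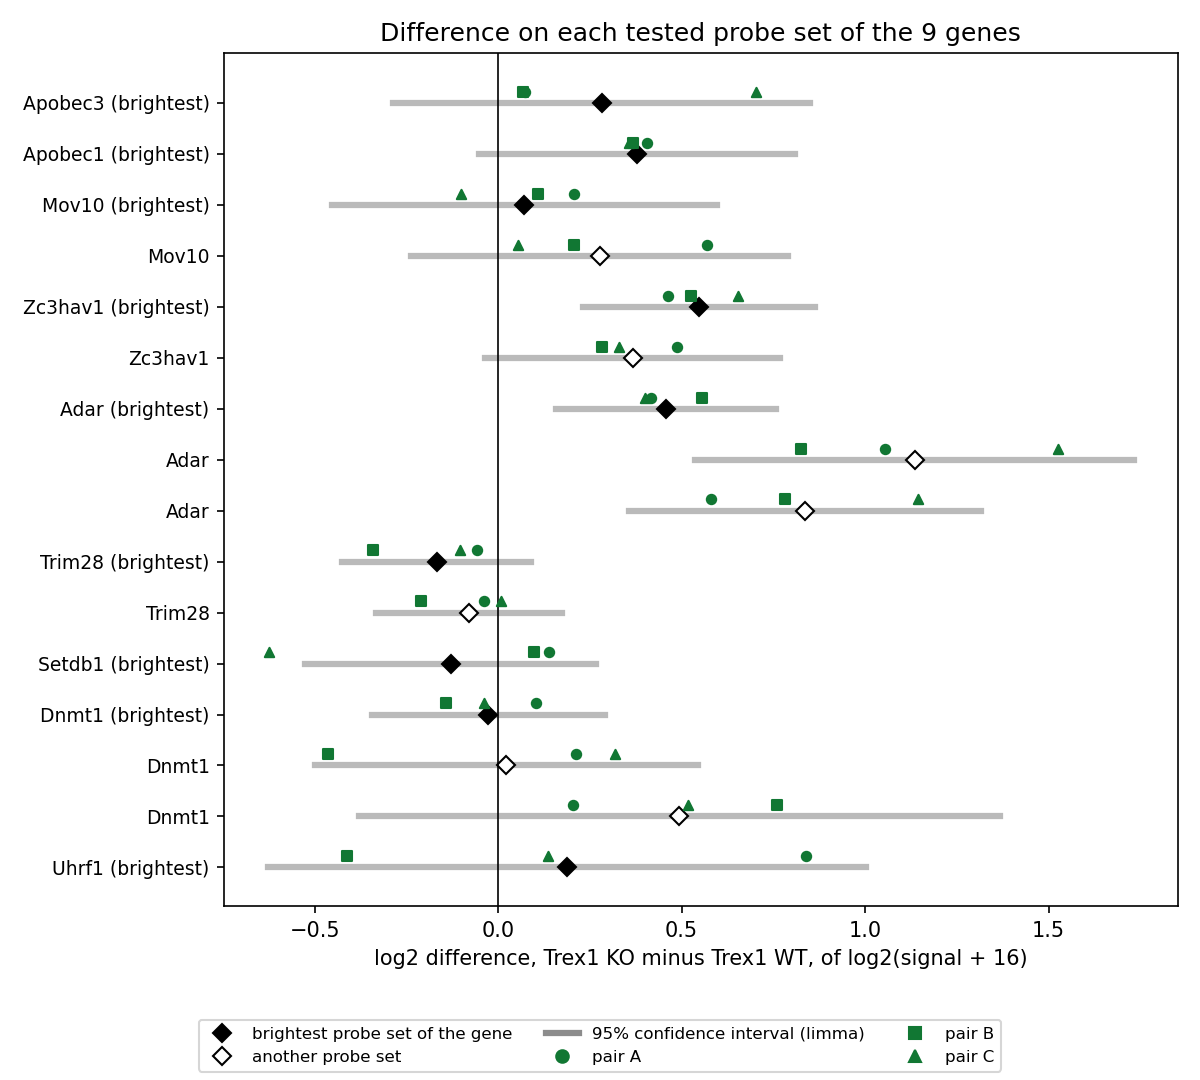
Log2 difference (Trex1 KO minus Trex1 WT, of signal + 16) on each of the 16 tested probe sets of the 9 genes, with limma's 95% confidence interval as a grey bar and the difference within each littermate pair as green symbols. The intervals of all 3 Adar probe sets and of the brightest Zc3hav1 probe set lie above 0, and those of Trim28, Setdb1, Dnmt1 and Uhrf1 include 0.

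Of 27 tested genes in a wider list of restriction factors, 3 rose and 0 fell (limma adjusted p under 0.05, with 0.312% and 0.039% of all tested genes called), and the median log2 difference was 0.19. The list was chosen with earlier results of these data known, so its count is not an independent test. Eif2ak2, the kinase PKR that halts translation on double-stranded RNA, rose from 289, 269 and 288 in Trex1 WT to 652, 685 and 707 in Trex1 KO. The groups were far apart, with a log2 difference of 1.23 (SE 0.14, limma adjusted p = 0.00373). Trim30a, a tripartite motif protein, rose from 973 ± 122 to 2373 ± 519 (SD, n = 3), by 1.26 on the log2 scale (SE 0.16, limma adjusted p = 0.00925). Without the array of Trex1 WT A it was no longer called (limma adjusted p = 0.0584). Zbp1 binds left-handed (Z-form) double helices and triggers cell death, and it rose from 136 ± 65.3 to 516 ± 78.2 (SD, n = 3, log2 difference 1.88, limma adjusted p = 0.0256). Its call held without Trex1 WT B but was lost without any other single array, with limma adjusted p up to 0.156. With the Actb ratio as a covariate none of these 3 calls held (limma adjusted p of 0.304 for Eif2ak2, 0.349 for Trim30a and 0.164 for Zbp1). The log2 differences with that covariate were 1.16, 1.32 and 2.55 in the same order. Their SEs were 0.25, 0.30 and 0.45, against 0.14, 0.16 and 0.28 without the covariate. No call of the 3 held without both animals of pair A or of pair C. Without an intensity trend Trim30a (0.183) and Zbp1 (0.217) were not called, and Zbp1 was not called without the filter (limma adjusted p = 0.0514). With the littermate pair as a block 6 of the 27 rose, beside 0.531% of all tested genes. The added genes, named after their values were seen, were Bst2 (log2 difference 1.17, limma adjusted p = 0.00890), Isg20 (0.96, 0.0382) and Trim25 (0.63, 0.0489). Bst2 tethers budding particles, Isg20 is an exonuclease, and Trim25 is a ubiquitin ligase and cofactor of Zc3hav1. The lowest p-values among those below 0 belonged to Rnaseh2c (-0.21), Pcbp1 (-0.14) and Zc3hav1l (-0.29), which did not pass. In all, 9 of the 27 had all knockout arrays above all wild-type arrays, against 5.03% of tested genes, and 1 had them below.

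Of 32 tested genes in a wider list of silencing factors, 0 rose and 0 fell in limma, also with the littermate pair as a block, and the log2 differences ran from -0.39 (Hells) to 0.59 (Cbx3) with a median of -0.04. At an unadjusted p under 0.05 there were 2 of 32, Daxx and Atf7ip, a share near that of all tested genes (678 of 12811). Daxx, a chaperone of histone variants, had mean signals of 612 ± 90.5 and 857 ± 150 (SD, n = 3, log2 difference 0.47, limma adjusted p = 0.777). Setdb2 (0.24) and Cbx3 (0.59), the next by p above 0, did not pass. Cbx3 was dim, with signals between 11.1 and 86.9 beside a highest bacterial control of 69.8. Its differences in pairs A, B and C were 1.34, 0.46 and -0.03. Below 0, Atf7ip, a partner of Setdb1, had a log2 difference of -0.27 (SE 0.11, limma adjusted p = 0.890). The heterochromatin protein Cbx5 gave -0.22 and the histone demethylase Kdm1a -0.20, and neither passed. All knockout arrays lay below all wild-type arrays for 5 of the 32 genes, against 5.83% of tested genes, and above them for 1, Daxx.

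For scale, 19 of 28 tested interferon-stimulated genes rose and 0 fell in the same fit, beside 0.312% and 0.039% of all tested genes. This list too was chosen with earlier results of these data known, so it serves as a scale only. Its median log2 difference was 1.59. The largest difference among the brightest probe sets of the 9 genes, 0.55 for Zc3hav1, was below that median, and so was its upper 95% bound of 0.86. The upper bounds of the other 8 genes were at most 1.003 on their brightest probe sets, but the dimmer Adar probe set with the difference of 1.13 had an upper bound of 1.73, above that median. Among all tested genes, the 3 whose log2 values ran most like those of Zc3hav1 over the 6 arrays were the interferon-induced chemokine Cxcl10, the guanylate-binding protein Gbp3 and Grn, which encodes progranulin. Pearson correlations with Zc3hav1 were 0.99 for each, and these values share the 6 arrays and the difference between genotypes. The 3 genes were picked for these values out of all tested genes, so the correlations are not a test of shared regulation. Cxcl10 had a log2 difference of 1.58, Gbp3 of 1.04 and Grn of 0.31, none of which passed. With the littermate pair as a block Cxcl10 (limma adjusted p = 0.0137) and Gbp3 (0.00175) passed and Grn (0.319) did not.

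**Figure D3:**
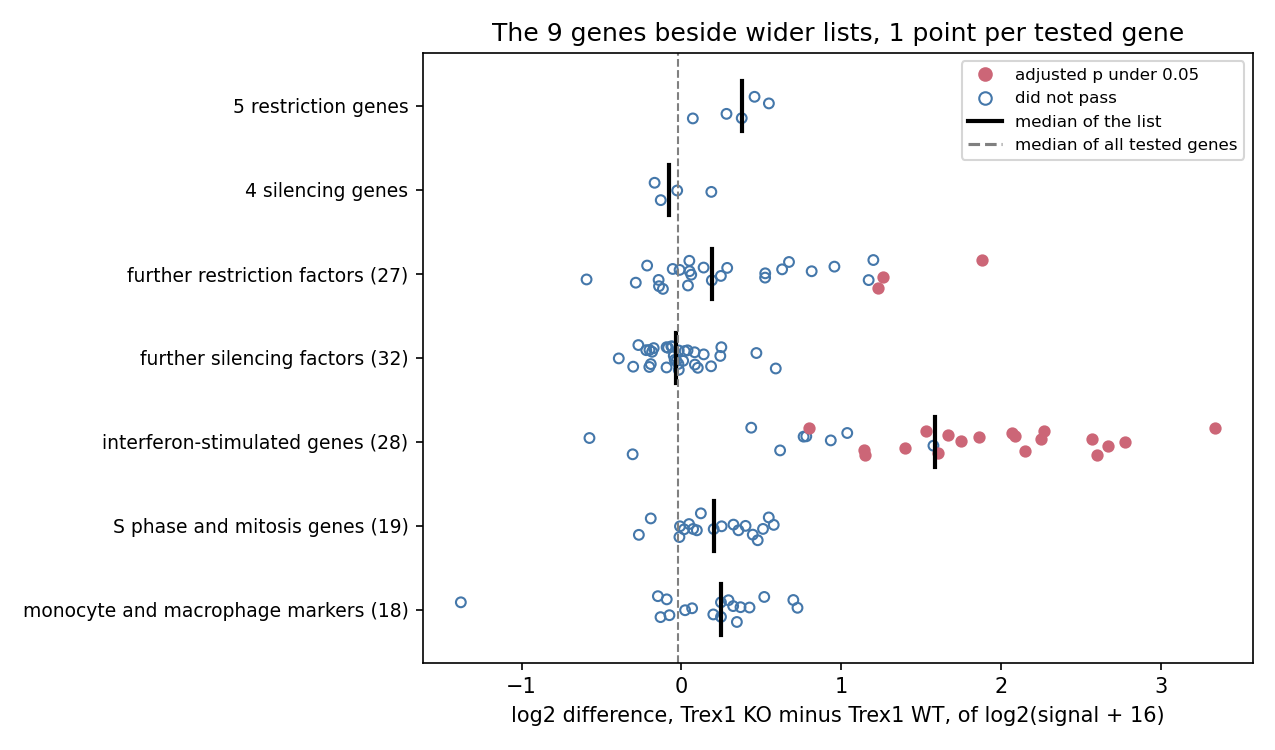
Log2 difference (Trex1 KO minus Trex1 WT) of each tested gene in the 2 groups of members and in 5 wider lists, with filled points for genes past the limma threshold and a black line at each median. The restriction factors among the members have a median of 0.38 and the silencing factors -0.08, and filled points occur only in the further restriction factors (3) and the interferon-stimulated genes (19) among the lists drawn.

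The 9 differences were computed again under 18 other settings, among them other pseudocounts and filters, the littermate block, and fits without each array or pair. None of the 9 genes passed under any of these settings on its brightest probe set or on the mean of its probe sets. Zc3hav1, Adar, Apobec1 and Apobec3 stayed above 0 and Trim28 below 0 in each of the 18, whereas Mov10, Setdb1, Dnmt1 and Uhrf1 changed sign under at least 1. Changing the filter, adding the littermate block or dropping the intensity trend leaves each difference as it was, so no sign could change there. The mean over probe sets likewise repeats the value of Apobec1 and of Apobec3, which have a single probe set each. The plot of differences by setting shows these ranges.

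**Figure D4:**
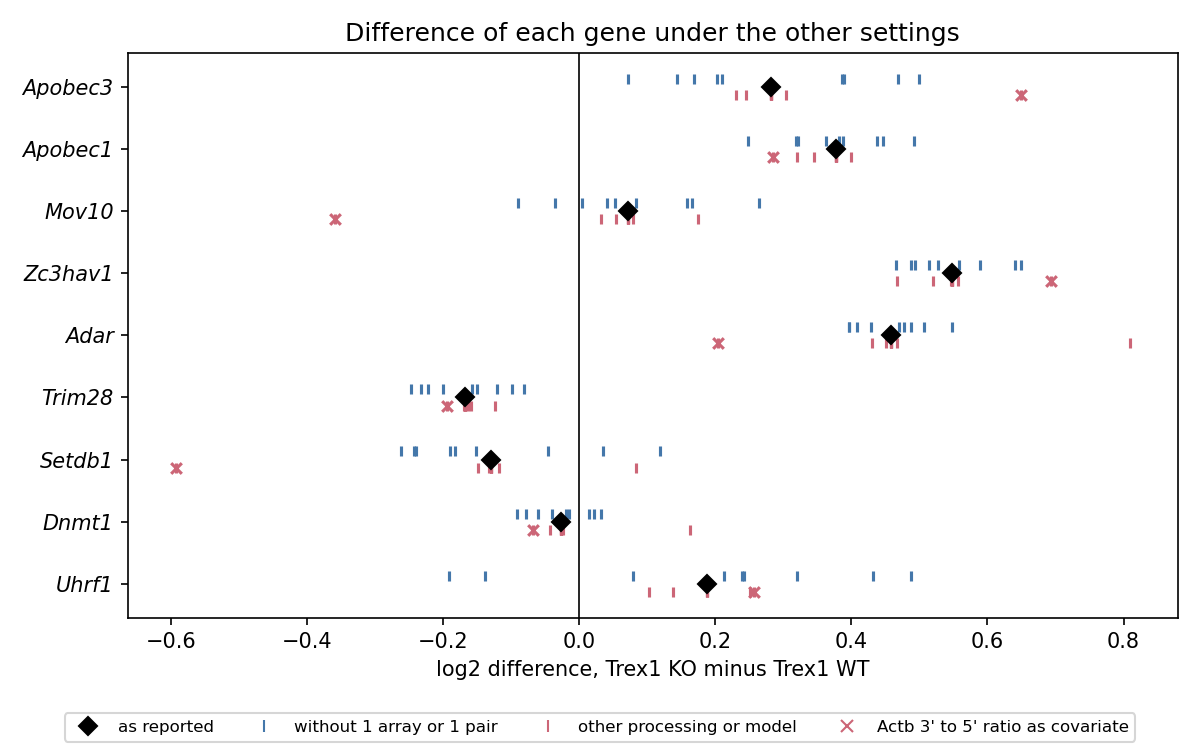
Log2 difference (Trex1 KO minus Trex1 WT) of each gene as reported (diamonds) and under the other settings: without 1 array or pair (blue ticks), other processing or models (red ticks), and the Actb 3' to 5' ratio as a covariate (crosses). Zc3hav1 runs from 0.47 to 0.69 and Adar from 0.20 to 0.81, while Mov10, Setdb1, Dnmt1 and Uhrf1 have values on both sides of 0.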

How the data were processed

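Ventricle RNA of 3 Trex1 WT and 3 Trex1 KO mice was measured on 1-colour arrays. The authors deposited 1 intensity per probe set and array, and the submitters' processing notes name MAS5, without a version or settings. The mean of each array after trimming 2% at either end was 500.0, so no further normalisation was applied. Values were transformed to log2(signal + 16). Probe sets whose mean reached the 40th percentile of those that are not controls (27022 of 45101) entered limma 3.58.1 (R 4.3.3; lmFit, eBayes with an intensity trend, two-sided, 4 residual degrees of freedom). Benjamini-Hochberg adjustment ran over all of them, with a threshold of 0.05, and the fit was tested on simulated data. Adding 16 understates differences of dim probe sets. Of the 20 probe sets of the 9 genes, 4 lay below the filter.

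Symbols came from the platform annotation, updated by Entrez identifier with the GRCm38.p6 gene table (0 changed); 34945 probe sets had 1 symbol, 932 several. For each gene the probe set with the highest mean log2 value was used. The littermate pairs are stated by the series, and littermates deviated together from their group means (r = 0.15, 0.19 and 0.15 for A, B and C); the block was an alternative, with 2 residual degrees of freedom. No label says how the arrays were batched. The number of arrays limits the precision, and p-values reflect only how much these 6 animals vary. The members and gene lists were chosen with earlier results of these data known. From the wider lists, named genes were those past the threshold, or the 3 with the smallest p in a direction without any, and for likeness the 3 genes best correlated with the member of smallest p.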

Additional observations from a re-analysis of the deposited data

How the results depend on the processing

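Under each of the 18 alternatives 0 of the 9 genes were called in either direction on the brightest probe set or the mean over probe sets. With the littermate pair as a replicate block the lowest limma adjusted p on a brightest probe set was 0.0963 (Zc3hav1). A dimmer Adar probe set had 0.0502 with that block. Uhrf1 was not tested under the 60th percentile filter or as a mean over probe sets. The sign changed in 12 of 160 gene and setting combinations, and the cause was not tested. The 160 include the filter, block and intensity trend settings, which cannot change a sign. Mov10 was -0.36 with the Actb ratio as a covariate and ran from -0.091 to 0.26 when 1 array was left out. Setdb1 was 0.084 as a mean over its probe sets and 0.12 without pair C, and ran from -0.24 to 0.035 without 1 array. Dnmt1 was 0.16 as a mean over its probe sets and 0.032 without pair B, and ran from -0.078 to 0.021 without 1 array. Uhrf1 was -0.14 without pair A and ran from -0.19 to 0.43 without 1 array. Of the further restriction factors, 3 were called higher; the count was 6 with the block, 6 with the mean over probe sets, 1 without an intensity trend, 0 with the Actb ratio as a covariate, 0 without pair A, 0 without pair C, and 1 (without Trex1 WT A) to 4 without 1 array. Over all tested genes, 40 were higher and 5 lower; the block gave 68 and 12, no intensity trend 16 and 2, the Actb covariate 6 and 0, the mean over probe sets 42 and 11, and leaving out pair A 16 and 0, pair B 40 and 8 and pair C 19 and 2. The further silencing factors gave 0 calls in each setting. Signals near the bacterial controls limit what can be said of Uhrf1.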
